A study of Mus musculus with 4 samples.

Results

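The unfolded protein response and the integrated stress response were followed through 35 genes, chosen by name from the 54532 genes of each count table, in RAW 264.7 cells, a mouse macrophage line. The groups were Hnrnpul1-/- cells exposed to 100 ng/ml lipopolysaccharide (LPS, which activates the receptor TLR4) for 10 h, wild-type cells under the same LPS, untreated Hnrnpul1-/- cells and untreated wild-type cells. Each of the 4 groups held 1 library of polyadenylated RNA, so no value has a replicate, and differences are between libraries. The sources used here do not say whether the knockout cells came from 1 clone or how the allele was made. The comparisons ask what LPS did to these genes in each genotype, and what the loss of Hnrnpul1, an RNA-binding protein, did to them with and without LPS.

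Stress in the endoplasmic reticulum (ER) is sensed by the membrane proteins PERK, IRE1 and ATF6. PERK and related kinases phosphorylate the translation factor eIF2, which slows protein synthesis in general while the transcription factor ATF4 is translated, and ATF4 then raises genes of amino acid supply and stress adaptation. IRE1 splices the mRNA of XBP1, and XBP1 and cleaved ATF6 raise chaperones of the ER and the machinery of ER-associated degradation (ERAD), which disposes of misfolded proteins. In macrophages, TLR4 signalling is known to engage parts of this network while cytokine secretion starts. The genes were divided by these roles into 12 of the ATF4 branch, 5 sensors and regulators, 14 ER chaperones and folding enzymes, and 4 ERAD genes.

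Total counts ranged from 17045432 to 17909549. Hnrnpul1 stood at 21.7 CPM in LPS-treated knockout and 203 CPM in LPS-treated wild type, and at 23.1 CPM in untreated knockout and 268 CPM in untreated wild type, so the genotype labels were matched by the transcript. All 10 listed macrophage markers passed the filter on low counts, with a summed level of 6069 CPM in LPS-treated knockout, 8722 CPM in LPS-treated wild type, 3524 CPM in untreated knockout and 4001 CPM in untreated wild type. Knockout to wild type, these markers went both ways, with log2 ratios from -1.42 to 1.25 under LPS (median -0.17, 3 of 10 above 0). Untreated, the ratios ran from -0.51 to 1.38, with 5 of 10 above 0. The part of these markers in the results below was not tested. The 6 fibroblast and 5 epithelial markers together had 0 to 4 reads and 7 lymphocyte markers 2 to 23 reads per library. Levels below are RPKM, TMM-scaled CPM divided by the gene length in kilobases. Differences are log2 ratios of TMM-scaled counts with 95% intervals that cover counting error only. Calls of higher or lower required a ratio of 2-fold or more with an interval that left out no change. Of the 35 genes, 34 passed the filter, a mean of at least 1 CPM over the libraries. The exception was Vldlr, a lipoprotein receptor gene, with 0 reads in every library. A count of 0 allows up to 0.155 to 0.195 CPM, the worth of 3 reads.

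Promoters of these genes carry known response elements, and those found are shown first because the factors named above act through them. Windows of 250 bases before the gene start (RefSeq, GRCm38.p6) were found for 31 of the 35 genes; Atf6, Ppp1r15b, Manf and Hyou1 had none. The ER stress response element (ERSE), bound by ATF6 with NF-Y, was searched on both strands as CCAAT and CCACG with 9 bases of any kind between them. It was present in the windows of 7 of 12 ER chaperone genes and of the ERAD gene Syvn1, and in 0.113% of all 32851 windows. In the stretches below, written 5′ to 3′ on the gene's strand, capitals mark the match, which reads CGTGG to ATTGG where it lies on the other strand.
Hspa5 (chr2:34772015-34772053, plus strand): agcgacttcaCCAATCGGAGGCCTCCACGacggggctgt
Dnajc3 (chr14:118937817-118937855, plus strand): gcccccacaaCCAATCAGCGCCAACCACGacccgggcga
Pdia6 (chr12:17266481-17266519, plus strand): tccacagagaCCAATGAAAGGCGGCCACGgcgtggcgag
Canx (chr11:50325790-50325828, minus strand): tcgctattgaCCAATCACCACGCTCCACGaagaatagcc
Calr (chr8:84847065-84847103, minus strand): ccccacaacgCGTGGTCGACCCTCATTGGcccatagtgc
Creld2 (chr15:88819510-88819548, plus strand): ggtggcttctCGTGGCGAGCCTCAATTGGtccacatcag
Hsp90b1 (chr10:86705523-86705666, minus strand): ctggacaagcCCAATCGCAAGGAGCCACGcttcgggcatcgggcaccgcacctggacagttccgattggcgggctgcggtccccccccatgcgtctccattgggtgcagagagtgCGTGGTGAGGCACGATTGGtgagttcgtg
Syvn1 (chr19:6046522-6046560, plus strand): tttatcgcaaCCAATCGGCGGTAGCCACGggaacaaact

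The C/EBP-ATF response element (CARE), through which ATF4 acts together with C/EBP proteins, was searched as TGATGNAA. It was present in the windows of 4 of 12 ATF4-branch genes and of the ERAD gene Herpud1, and in 3.45% of all windows. In Chac1, Nupr1, Vldlr and Herpud1 the matched letters were the same, the reverse complement TTGCATCA. The Herpud1 stretch also holds the compact element ERSE-II (ATTGG and CCACG with 1 base between them, present in 0.0304% of windows), at the end nearer the gene. ERSE and ERSE-II share the letters CCACG. The ATF6 and XBP1 motif TGACGTGG was in 0.563% of all windows and in none of the 31 genes' windows, which says only that these letters are not there.
Chac1 (chr2:119351039-119351066, plus strand): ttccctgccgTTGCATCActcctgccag
Nupr1 (chr7:126625563-126625590, minus strand): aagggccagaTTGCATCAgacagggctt
Vldlr (chr19:27216810-27216837, plus strand): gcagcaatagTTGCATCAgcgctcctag
Asns (chr6:7693215-7693242, minus strand): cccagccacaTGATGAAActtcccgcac
Herpud1 (chr8:94386307-94386397, plus strand): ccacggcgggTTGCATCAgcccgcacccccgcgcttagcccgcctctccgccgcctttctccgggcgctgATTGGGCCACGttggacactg

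LPS was followed by higher transcripts of nearly the whole ATF4 branch, of a pair of ER chaperones and of part of the ERAD machinery, in both genotypes. Of 34 genes, 15 were called higher in knockout and 14 in wild type, where 11.6% and 11.2% of all 11640 genes tested were called higher. None was called lower, against 12.0% and 10.1% of all genes. By group, 10 of 11 ATF4-branch genes, 2 of 14 ER chaperones and 0 of 5 sensors and regulators were called higher in each genotype, and of 4 ERAD genes 3 in knockout and 2 in wild type. For the chaperones this was 14.3%, near the share of all genes. The third ERAD call in knockout, Sel1l, was at the edge of the rule and was lost under 4 alternatives. In bulk RNA, fewer cells of a state and less RNA per cell cannot be told apart.

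The median log2 LPS ratio of the ATF4 branch was 2.18 in knockout and 2.21 in wild type. That of the ER chaperones was 0.47 in knockout and 0.43 in wild type, and that of all genes -0.020 in knockout and -0.0039 in wild type. The ranges of both groups overlapped. Cebpg, at the low end of the ATF4 branch, lay below most chaperones, and Dnajb9, at the top of the chaperones, lay among the ATF4-branch genes.

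**Figure D1:**
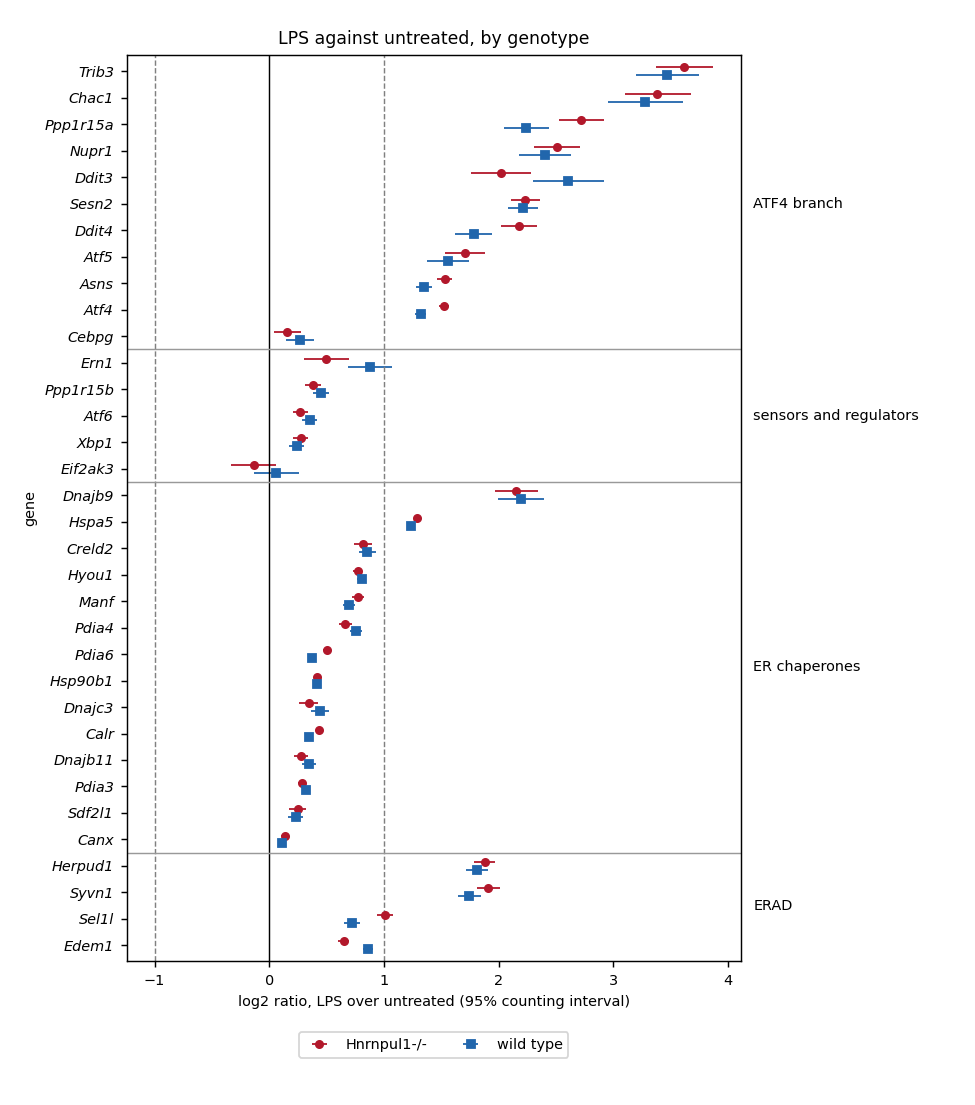
Log2 ratio of LPS-treated over untreated cells for the 34 genes measured, by group, with 95% counting intervals; circles are Hnrnpul1-/- and squares wild type, 1 library per group, and dashed lines mark 2-fold. In the ATF4 branch 10 of 11 genes lie right of the upper line in both genotypes, while 12 of 14 ER chaperones lie between 0 and that line.

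Atf4 itself, the transcription factor of the branch (ENSMUSG00000042406), was already abundant. Its level was 369 RPKM in LPS-treated knockout and 309 RPKM in LPS-treated wild type, against 128 RPKM in untreated knockout and 124 RPKM in untreated wild type. Both LPS libraries were above both untreated ones, by log2 ratios of 1.53 (1.48 to 1.57) in knockout and 1.32 (1.27 to 1.37) in wild type. Its regulation is known to be mainly translational, which counts of mRNA do not show.

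Trib3, a pseudokinase that restrains ATF4 signalling, had the highest LPS ratio of the 35 genes in each genotype. It reached 43.8 RPKM in LPS-treated knockout and 33.8 RPKM in LPS-treated wild type, against 3.57 RPKM in untreated knockout and 3.05 RPKM in untreated wild type. The log2 ratios were 3.62 (3.37 to 3.87) and 3.47 (3.20 to 3.75), ranks 246 and 267 among 11640 genes. Chac1, an enzyme that degrades glutathione, followed. Its levels were 36.9 RPKM in LPS-treated knockout and 28.0 RPKM in LPS-treated wild type, against 3.53 RPKM in untreated knockout and 2.89 RPKM in untreated wild type. LPS and untreated libraries of Chac1 were thus far apart, with ratios of 3.39 (3.10 to 3.68) in knockout and 3.27 (2.96 to 3.61) in wild type.

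Ddit3 encodes CHOP, a transcription factor linked to cell death under lasting ER stress. It had 19.7 RPKM in LPS-treated knockout and 20.0 RPKM in LPS-treated wild type, against 4.85 RPKM in untreated knockout and 3.29 RPKM in untreated wild type. Its LPS libraries were level and its untreated ones were not, so that the log2 LPS ratio was 2.02 (1.76 to 2.28) in knockout and 2.60 (2.30 to 2.92) in wild type. The values belong to ENSMUSG00000025408; a second gene model of 105 bases with the same symbol lies within it and had 0 reads in every library.

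Nupr1, a small chromatin-associated stress protein gene, was at 30.0 RPKM in LPS-treated knockout and 21.7 RPKM in LPS-treated wild type. Untreated it was at 5.28 RPKM in knockout and 4.10 RPKM in wild type. Both LPS libraries were above both untreated ones, with log2 ratios of 2.51 (2.31 to 2.71) in knockout and 2.40 (2.18 to 2.64) in wild type. Sesn2 encodes sestrin 2, which signals amino acid shortage to mTORC1. Its level was 47.1 RPKM in LPS-treated knockout and 43.6 RPKM in LPS-treated wild type, against 10.0 RPKM in untreated knockout and 9.42 RPKM in untreated wild type. The ratios of Sesn2 were nearly the same in both genotypes, 2.23 (2.11 to 2.36) in knockout and 2.21 (2.08 to 2.34) in wild type. Ddit4, another inhibitor of mTORC1, had 56.2 RPKM in LPS-treated knockout and 43.7 RPKM in LPS-treated wild type, against 12.4 RPKM in untreated knockout and 12.7 RPKM in untreated wild type. Its log2 LPS ratio was 2.18 (2.02 to 2.34) in knockout and 1.78 (1.62 to 1.94) in wild type.

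Asns, asparagine synthetase, was at 143 RPKM in LPS-treated knockout and 114 RPKM in LPS-treated wild type, against 49.5 RPKM in untreated knockout and 44.8 RPKM in untreated wild type. Like Atf4 it started high and moved by a smaller factor, with log2 ratios of 1.53 (1.46 to 1.60) in knockout and 1.35 (1.28 to 1.42) in wild type. Atf5, a transcription factor related to ATF4, was at 31.1 RPKM in LPS-treated knockout and 27.3 RPKM in LPS-treated wild type, against 9.56 RPKM in untreated knockout and 9.27 RPKM in untreated wild type. The Atf5 ratios were 1.70 (1.53 to 1.88) in knockout and 1.56 (1.38 to 1.74) in wild type. Cebpg, a C/EBP protein gene and partner of ATF4, was the measured member of the branch that was not called. It was at 13.0 RPKM in LPS-treated knockout and 12.6 RPKM in LPS-treated wild type, against 11.6 RPKM in untreated knockout and 10.5 RPKM in untreated wild type. Its log2 ratios were 0.16 (0.04 to 0.27) and 0.27 (0.14 to 0.39), and below 0 in both genotypes with total counts in place of TMM.

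The phosphatase subunits that restore eIF2 differed from each other. Ppp1r15a, encoding the stress-induced GADD34, was at 29.3 RPKM in LPS-treated knockout and 22.8 RPKM in LPS-treated wild type, against 4.45 RPKM in untreated knockout and 4.84 RPKM in untreated wild type. Its log2 LPS ratio was 2.72 (2.53 to 2.92) in knockout and 2.24 (2.04 to 2.44) in wild type. Ppp1r15b, the constitutive subunit gene, had ratios of 0.38 (0.31 to 0.45) and 0.45 (0.38 to 0.52) and was not called. Within a library, where scaling between libraries plays no part, Ppp1r15a per length was 0.725 of Ppp1r15b in LPS-treated knockout and 0.546 in LPS-treated wild type, against 0.143 in knockout and 0.158 in wild type without LPS.

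**Figure D2:**
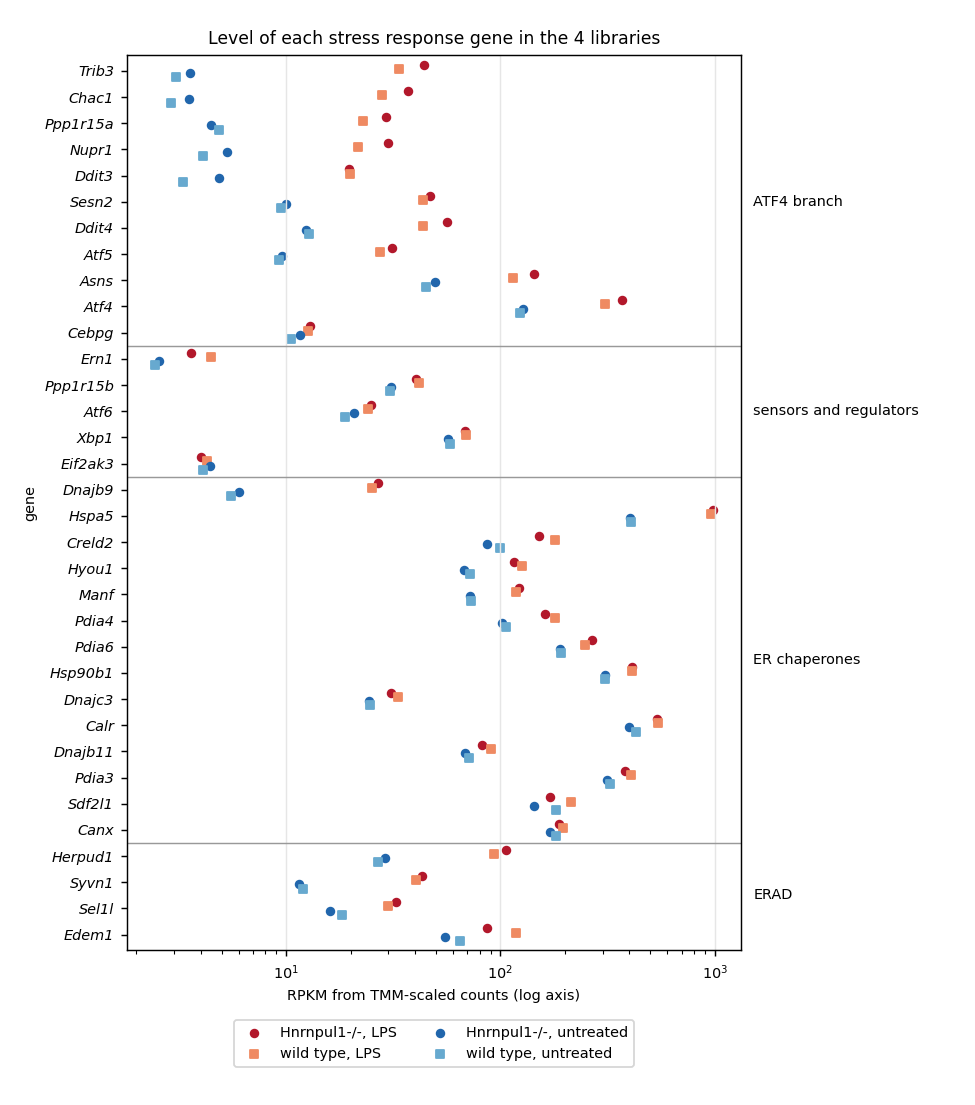
RPKM of the 34 genes measured, on a log axis, 1 point per library, with genes grouped by role and ordered within a group by mean LPS ratio. The LPS-treated libraries stand apart from the untreated ones in the ATF4 branch, Cebpg excepted, while Hsp90b1, Pdia3, Calr and Canx lie close together at high levels in all 4 libraries.

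No sensor or regulator gene was called. Eif2ak3, the PERK gene, was at 3.999 RPKM in LPS-treated knockout and 4.27 RPKM in LPS-treated wild type, against 4.40 RPKM in untreated knockout and 4.09 RPKM in untreated wild type. These libraries did not separate by LPS, and the log2 LPS ratios of -0.14 (-0.33 to 0.06) and 0.06 (-0.13 to 0.26) had intervals that included no change. Ern1, the IRE1 gene, was at 3.60 RPKM in LPS-treated knockout and 4.46 RPKM in LPS-treated wild type, against 2.55 RPKM in untreated knockout and 2.43 RPKM in untreated wild type. Its ratio was 0.50 (0.30 to 0.69) in knockout and 0.87 (0.68 to 1.07) in wild type, under the 2-fold rule.

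Atf6, the membrane-bound transcription factor gene, was at 25.0 RPKM in LPS-treated knockout and 24.0 RPKM in LPS-treated wild type, against 20.8 RPKM in untreated knockout and 18.8 RPKM in untreated wild type. Xbp1 was at 68.6 RPKM in LPS-treated knockout and 68.8 RPKM in LPS-treated wild type, against 56.7 RPKM in untreated knockout and 58.3 RPKM in untreated wild type. Both had LPS libraries above untreated ones by log2 ratios between 0.24 and 0.35, and with total counts in place of TMM the Xbp1 ratio was below 0 in both genotypes and the Atf6 ratio in knockout. Counts per gene do not separate spliced from unspliced Xbp1 mRNA, so the activity of IRE1 was not measured.

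Among the ER chaperones, Hspa5 and Dnajb9 were called higher with LPS. Hspa5 encodes BiP, the main Hsp70 of the ER and the protein that holds the sensors inactive. It was among the most abundant transcripts, at 983 RPKM in LPS-treated knockout and 964 RPKM in LPS-treated wild type, against 403 RPKM in untreated knockout and 409 RPKM in untreated wild type. Its log2 ratios were 1.29 (1.27 to 1.31) in knockout and 1.24 (1.22 to 1.26) in wild type, and with total counts in place of TMM they fell under the 2-fold rule, to 0.98 and 0.94. Dnajb9, which encodes the BiP cochaperone ERdj4, was at 26.7 RPKM in LPS-treated knockout and 25.2 RPKM in LPS-treated wild type, against 5.995 RPKM in untreated knockout and 5.51 RPKM in untreated wild type. The Dnajb9 ratio was 2.16 (1.97 to 2.35) in knockout and 2.19 (1.998 to 2.40) in wild type.

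Hsp90b1, the ER Hsp90 GRP94, is a client-specific chaperone that TLR4 itself needs for folding. It was at 411 RPKM in LPS-treated knockout and 410 RPKM in LPS-treated wild type, against 308 RPKM in untreated knockout and 307 RPKM in untreated wild type. Genotypes were level within each treatment, and the log2 LPS ratio was 0.42 (0.39 to 0.44) in each. Hspa5 per length was thus 2.39 times Hsp90b1 in LPS-treated knockout and 2.35 times in LPS-treated wild type, against 1.31 and 1.33 times in untreated knockout and untreated wild type. This change within a library does not depend on scaling.

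The other 11 chaperones and folding enzymes had ratios from 0.13 to 0.81 in knockout and from 0.11 to 0.85 in wild type, none of them called. At the top were Creld2 (0.81 and 0.85), Hyou1, a nucleotide exchange factor for BiP (0.77 and 0.81), Manf, a secreted stress protein gene (0.77 and 0.69), and Pdia4, a disulfide isomerase gene (0.66 and 0.76). At the bottom was Canx, the membrane lectin chaperone calnexin (0.13 and 0.11), while its soluble relative Calr had 0.44 and 0.34. With TMM all 14 chaperones lay above 0 in both genotypes. With total counts 10 did in knockout and 12 in wild type; Canx and Sdf2l1 flipped in both, and Dnajb11 and Pdia3 in knockout.

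Summed over the 14 genes, chaperone RPKM was 1.54-fold higher with LPS in knockout and 1.51-fold higher in wild type. Hspa5 made up 27.1% of the sum in LPS-treated knockout and 25.8% in LPS-treated wild type, against 17.1% in knockout and 16.5% in wild type without LPS. Summed RPKM of the ATF4 branch was 3.37-fold higher in knockout and 2.96-fold higher in wild type. LPS ratios of chaperones with and without an ERSE match overlapped. The 7 with a match had LPS ratios from 0.13 to 1.29 in knockout and 0.11 to 1.24 in wild type, and the 5 with a window and no match from 0.25 to 2.16 and from 0.23 to 2.19.

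The median LPS ratio of the 4 ERAD genes, 1.45 in knockout and 1.30 in wild type, lay between those of both groups. Single genes overlapped with the uncalled chaperones. Edem1 in knockout (0.65) and Sel1l in wild type (0.72) lay below Creld2 (0.81 in knockout and 0.85 in wild type). Herpud1, a membrane protein gene of the degradation complex whose promoter holds ERSE-II and CARE, was at 106 RPKM in LPS-treated knockout and 93.5 RPKM in LPS-treated wild type, against 28.8 RPKM in untreated knockout and 26.7 RPKM in untreated wild type. Its log2 ratios were 1.88 (1.79 to 1.97) in knockout and 1.81 (1.71 to 1.90) in wild type. Syvn1 encodes HRD1, the ubiquitin ligase at the core of ERAD. It was at 43.1 RPKM in LPS-treated knockout and 40.2 RPKM in LPS-treated wild type, against 11.5 RPKM in untreated knockout and 12.0 RPKM in untreated wild type, with ratios of 1.91 (1.81 to 2.01) and 1.74 (1.64 to 1.84). Both ratios lay below the ATF4-branch median in each genotype and above every ER chaperone except Dnajb9.

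Sel1l, the adaptor of HRD1, was at 32.5 RPKM in LPS-treated knockout and 29.9 RPKM in LPS-treated wild type, against 16.1 RPKM in untreated knockout and 18.1 RPKM in untreated wild type. Its ratio of 1.01 (0.94 to 1.08) in knockout was just inside the 2-fold rule and its 0.72 (0.65 to 0.79) in wild type was not. The knockout call was lost with total counts (0.70), with log2 of the deposited FPKM plus 1 (0.98), in an additive model of genotype and LPS (0.87) and where the whole interval had to lie beyond 2-fold. The interaction, knockout ratio minus wild-type ratio, was 0.29 (0.19 to 0.39) and was not called. Edem1, a lectin that extracts misfolded glycoproteins, had ratios of 0.65 (0.60 to 0.69) in knockout and 0.86 (0.82 to 0.90) in wild type.

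Other genes of these pathways were read from lists of known members. Of 22 further integrated stress response genes measured, 14 were called higher with LPS in knockout (63.6%) and 13 in wild type (59.1%), and none lower. They were led by Cth, the cysteine-making enzyme cystathionine gamma-lyase (log2 ratio 4.78 in knockout and 4.77 in wild type), Slc7a11, the cystine transporter (3.50 and 4.24), Atf3, a transcription factor downstream of ATF4 (3.73 and 3.39), and Eif2ak2, the eIF2 kinase PKR (2.26 and 2.68). Slc7a11 is also a known NRF2 target and Eif2ak2 an interferon-stimulated gene. Of the other eIF2 kinases, Eif2ak1 had ratios of -0.01 and 0.06 and Eif2ak4 -0.31 in each genotype.

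Of 31 further genes of ER folding and translocation, 7 were called higher in knockout (22.6%) and 4 in wild type (12.9%), the second near the 11.2% of all genes. Those with the largest ratios were Ero1l, an ER oxidase (1.59 and 1.73), Wfs1 (1.41 and 1.49, on 14 to 68 reads), P4hb, the main disulfide isomerase (1.29 and 1.24), and Serp1, a translocon-associated protein gene (1.18 and 1.08). Of 16 further ERAD genes 1 was called in each genotype (6.25%, below the share of all genes), Selenos (1.36 and 1.25), a selenoprotein of the ER membrane. Of 13 cytosolic heat shock genes measured, 0 were called in either direction, with medians of 0.31 in knockout and 0.54 in wild type.

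**Figure D3:**
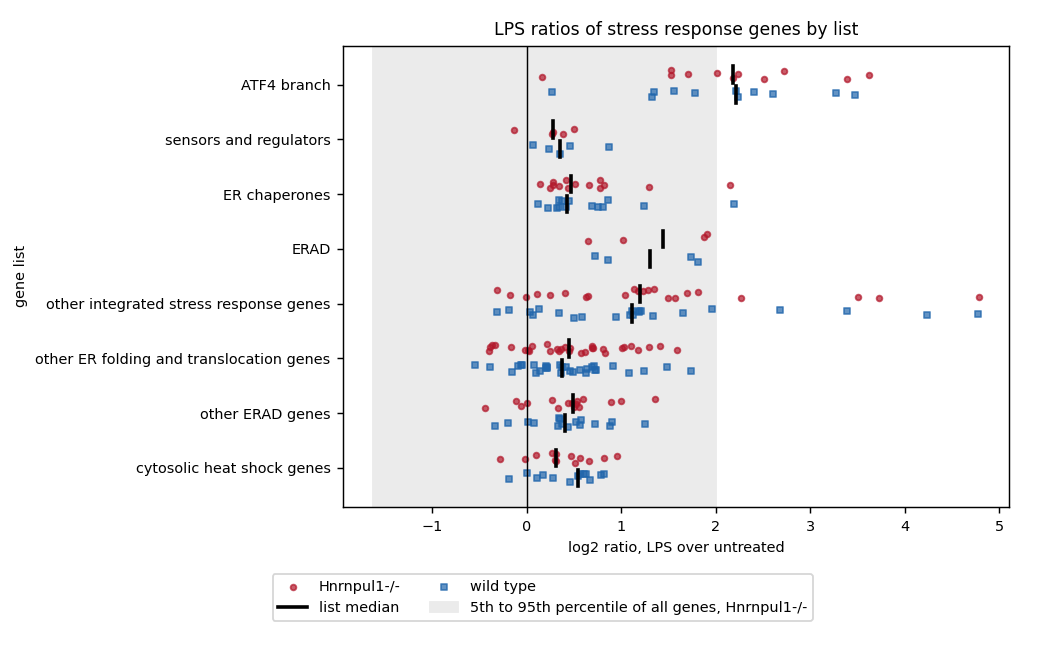
Log2 LPS ratios of the 34 genes by group and of 4 lists of related genes; each point is a gene, circles Hnrnpul1-/- and squares wild type, black bars are list medians and the grey band spans the 5th to the 95th percentile of all genes in Hnrnpul1-/-. The ATF4 branch reaches furthest right among the 4 groups, and the cytosolic heat shock genes stay below 2-fold.

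No gene of the 35 was called between genotypes. With LPS, 0 of 34 were called higher or lower in knockout than in wild type, where 1.66% of all genes were called higher and 1.83% lower. Untreated, 0 of 34 were called as well, against 1.15% and 0.859%. In the interaction 0 were called, against 1.19% higher and 1.84% lower. All 34 averaged above 10 CPM. Of the 8799 genes with a mean of at least 10 CPM, 42 were called higher and 60 lower under LPS, and 27 and 16 untreated. A count of 0 of 34 was thus near the share of all genes and is not particular to these genes. These comparisons share libraries with the LPS ratios above and are not independent of them.

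Below the 2-fold size, the medians of the ATF4 branch and of the ER chaperones lay on opposite sides of no change under LPS. The median log2 ratio, knockout to wild type, was 0.33 for the ATF4 branch, with 10 of 11 genes above 0, and -0.08 for the chaperones, with 5 of 14 above 0. The median of all genes was 0.0013. The 22 further integrated stress response genes had a median of 0.055 in the same comparison, with 14 above 0 and a range from -0.75 to 0.67. At its ends were Jdp2 (-0.75), Pck2 (-0.73) and Slc7a11 (-0.48) on the low side and Cth (0.67) and Atf3 (0.54) on the high side. The chaperone median lay between the quartiles of all genes, -0.16 and 0.15, and 2 of 14 chaperones lay below the lower one. Of the ATF4 branch, 8 of 11 genes exceeded the upper quartile, and 0 of 14 chaperones did. Highest were Nupr1 (0.47, 0.34 to 0.60), Chac1 (0.40, 0.26 to 0.54), Trib3 (0.38, 0.26 to 0.49), Ppp1r15a (0.36, 0.24 to 0.48), Ddit4 (0.36, 0.25 to 0.47) and Asns (0.33, 0.27 to 0.38). Atf4 had a ratio of 0.26 (0.22 to 0.29), and Ddit3, the exception below 0, -0.02 (-0.20 to 0.15). With 1 library per group, whether such differences exceed the spread between cultures was not tested.

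Untreated, the ATF4-branch median was 0.14, with 9 of 11 genes above 0, and the chaperone median -0.05, with 2 of 14 above 0. Ddit3, with 161 reads in knockout and 107 in wild type, had the ratio furthest from 0, at 0.56 (0.20 to 0.93). Of the 11 genes, 4 had intervals above 0 untreated and 9 had under LPS. Branch reads, knockout and wild type, were 12134 and 11176 without LPS, and 32316 and 25604 with it. More reads narrow a counting interval at any ratio, so the step from 4 to 9 does not measure the genotype difference. The same count over all genes was not made. In the interaction, 4 of the 11 had intervals above 0 and 1 had one below 0.

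Among chaperones and ERAD genes, Edem1, Sdf2l1 and Creld2 were lower in knockout in both treatments by amounts beyond counting error and below 2-fold. Pdia3, Canx and Hyou1 were too, by smaller amounts. All of these ratios lay above the 5th percentile of all genes, -0.65 under LPS and -0.42 untreated. At high read counts, small ratios also clear a counting interval. Edem1 had 86.9 RPKM in LPS-treated knockout and 118 RPKM in LPS-treated wild type, and 55.4 RPKM in untreated knockout and 64.8 RPKM in untreated wild type. Its log2 ratio was -0.44 (-0.48 to -0.40) under LPS and -0.23 (-0.27 to -0.18) untreated. Sdf2l1, a component of ER chaperone complexes, had 170 RPKM in LPS-treated knockout and 213 RPKM in LPS-treated wild type, and 143 RPKM in untreated knockout and 182 RPKM in untreated wild type. The Sdf2l1 ratio was -0.32 (-0.39 to -0.25) under LPS and -0.34 (-0.41 to -0.27) untreated, and that of Creld2 was -0.25 (-0.32 to -0.18) and -0.21 (-0.29 to -0.13). Among the further genes, Wfs1 was called lower in knockout in both treatments (-1.20 under LPS and -1.13 untreated), on 31 reads in LPS-treated knockout and 68 in LPS-treated wild type, and 14 in knockout and 30 in wild type without LPS.

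**Figure D4:**
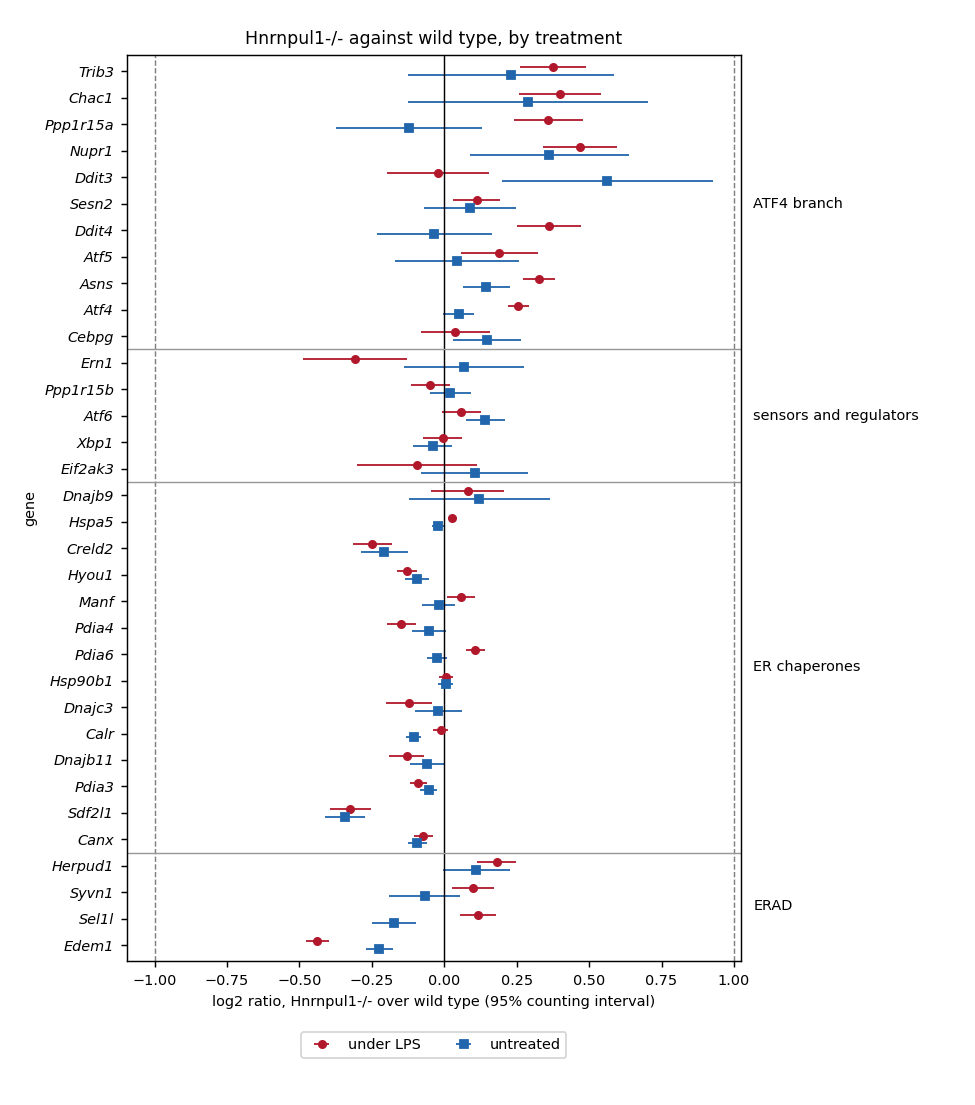
Log2 ratio of Hnrnpul1-/- over wild type for the 34 genes measured, with 95% counting intervals; circles are under LPS and squares untreated, 1 library per group, and dashed lines mark 2-fold. No gene reaches 2-fold; under LPS the ATF4-branch genes lie right of 0 except Ddit3, and Edem1 lies furthest left at -0.44.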

How the data were processed

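The deposited values are whole-number read counts per gene, not normalized, and FPKM, for which the authors divided counts by gene length and a constant per library, as the values show. The submitters' processing notes list featureCounts 1.5.0-p3, HISAT2 2.0.5 and CASAVA 1.8, and as builds GRCm38 and mm10. Per the labels' protocols, polyadenylated RNA was selected and cDNA primed with random hexamers. The sources used here do not say whether counting used strand. Of the genes called with LPS, 5 share up to 105 exon bases with another gene in GENCODE M21, so reads there cannot be told apart.

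The filter kept genes that averaged 1 CPM or more over the 4 libraries (11640 of 54532). TMM factors came from edgeR 4.0.16 (R 4.3.3). Ratios carry exact conditional 95% intervals (scipy 1.17.1) and the interaction a delta-method interval; no molecular identifiers are described, so PCR copies may count as separate reads, and intervals and floors cover counting error only. In ratios, 0 reads were set to 3. The calling rule and the additive model were run on simulated data. The simulated counts held counting error only for the rule, and a small fixed extra spread for the model. They cannot show whether calls would hold between cultures. As alternatives, libraries were scaled by DESeq2 1.42.0 size factors or by total counts, the filter was dropped or raised to 10 CPM, calls were made at 1.5-fold or with the whole interval past 2-fold, and ratios were taken from log2 of the deposited FPKM plus 1 or 0.1, or from an additive genotype and LPS model (edgeR's quasi-likelihood test). The genes, lists and tests were chosen with earlier results of these data known. Values in every library are given for genes called in any comparison and for Atf4, Ddit3, Xbp1, Hspa5, Hsp90b1, Eif2ak3, Ern1 and Atf6; from each further list, up to 4 genes called with LPS and up to 2 called between genotypes are named. Cebpg, Edem1, Sdf2l1 and Creld2, the eIF2 kinases Eif2ak1 and Eif2ak4, and Jdp2 and Pck2 were added after their values were seen. Promoters are RefSeq windows of GRCm38.p6, searched over the 250 bases before the start.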

Additional observations from a re-analysis of the deposited data

Results flagged for a closer look

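Sel1l differed between genotypes in opposite directions in the 2 treatments. Its log2 ratio, knockout to wild type, was 0.12 under LPS and -0.17 untreated, and both counting intervals excluded no change. The ratio under LPS lay between the quartiles of all genes, -0.16 and 0.15, and the untreated one below the lower quartile, -0.10. How many of all genes change sign in this way was not counted, so the flag is not shown to be particular to Sel1l. Each side rests on 1 library per genotype, and the difference between treatments was not tested over cultures.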

How the results depend on the processing

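No paired analysis was possible because each group held 1 library, so no replicate numbers could pair libraries as a block. Counts of the 34 genes called, in each comparison and direction, stayed within 1.5 times of the reported ones under every alternative run, and none of the 29 single calls changed sign. Scaling by total counts moved the median of all genes to -0.33 in knockout and -0.30 in wild type. It put the ATF4-branch median LPS ratio at 1.87 in knockout and 1.91 in wild type, and the chaperone median at 0.16 and 0.13. It ended the LPS calls of Hspa5 in both genotypes and of Sel1l in knockout (0.70), and gave 989 genes higher and 2156 lower in knockout (31.4% of calls higher, against 49.0% with TMM) and 975 and 1904 in wild type (33.9% against 52.6%). The order of the 4 group medians with LPS was the same. Log2 of the deposited FPKM plus 1 put the ATF4-branch median in wild type at 2.03 and Sel1l at 0.98 in knockout. The Sel1l call was also lost with the whole interval beyond 2-fold (ratio 1.01) and in the additive model (0.87). That model takes any difference in LPS response between genotypes as error, with 1 residual degree of freedom. It called 14 of the 34 genes higher with LPS (adjusted p under 0.05 over all genes by edgeR's quasi-likelihood test, and 2-fold), against 1274 of 11640 genes, and 0 of the 34 between genotypes at an adjusted p under 0.05 (223 of all genes). At an unadjusted p under 0.05 there were 7 of the 34 (20.6%) and 1542 of 11640 genes (13.2%). Over all genes, counts moved further: across these alternatives other than the additive model, 918 to 2247 genes were higher and 766 to 2448 lower with LPS in knockout (1345 and 1398 as reported), 882 to 2202 and 681 to 2230 in wild type (1309 and 1180), 42 to 463 and 56 to 524 between genotypes under LPS (193 and 213), 27 to 316 and 16 to 262 untreated (134 and 100), and 12 to 307 and 27 to 449 in the interaction (138 and 214). In the interaction the share of calls that were higher was 39.2%, and 51.6% with FPKM plus 1. With 1 library per group the spread between cultures is not known, and the intervals cover counting error only.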

Other observations

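The promoter motifs were also set against the LPS ratios of all genes that hold them, a description made after the matches in the stress response genes were seen. Of the 35 genes in the RefSeq table with an exact ERSE, 8 belonged to the 35 stress response genes and 5 more passed the filter on low counts. Among those 5, Alg12, a mannosyltransferase gene of N-glycan assembly in the ER, had log2 LPS ratios of 1.13 in knockout and 0.995 in wild type. The other 4, Acacb, Adcy3, Hnrnpa3 and Pan2, had ratios below 0 in both genotypes, on 13 to 69 reads for Acacb and Adcy3. The 208 genes with a CARE match that passed the filter included Chac1, Asns, Nupr1 and Herpud1, themselves called higher in both genotypes. Of the 208, 42 were called higher with LPS in knockout (20.2%) and 43 in wild type (20.7%), where all genes gave 11.6% and 11.2%. Of the same genes, 27 were called lower in knockout (13.0%) and 19 in wild type (9.13%), where all genes gave 12.0% and 10.1%. Of 79 genes with the ATF6 and XBP1 motif TGACGTGG, which none of the 31 stress response windows held, 14 were called higher in knockout (17.7%) and 11 in wild type (13.9%). Of these 79, 10 were called lower in knockout (12.7%) and 8 in wild type (10.1%). The shares of all genes are those given for CARE. The median ratio of those 208 genes was 0.04 in knockout and 0.09 in wild type.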
